A study of Mus musculus with 4 samples.

Results

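The 5 genes described here are Cxcl1, Cxcl2 and Cxcl3, which encode chemokines that attract neutrophils, Cxcr2, which encodes their shared receptor, and Csf3r, which encodes the receptor of the granulocyte colony-stimulating factor G-CSF. They were chosen by name as 5 of the 32285 genes in the table, of which 18830 held at least 1 UMI (a molecular identifier, which counts an RNA molecule once). The cells were live CD45+ immune cells from the esophagus of 5 wild-type (WT) mice and 5 mice lacking Il20rb, a receptor subunit for cytokines of the interleukin-20 family (IL20RB knock-out, KO). All 10 animals, controls included, had gone through an induced model of eosinophilic esophagitis, in which food allergy inflames that organ. Their ears were treated daily for 14 days with 1 nmol of the vitamin D analogue MC903 and with ovalbumin (OVA) at 5 mg/mL. OVA was then given in the drinking water at 1.5 g/l for 4 days and by gavage of 50 mg on days 15 and 17, and organs were taken on day 18. The labels give no age or sex, and unchallenged animals were not analysed here. Each animal carried its own hashtag, and the 10 suspensions were pooled before the sort and loaded on 2 wells, so every animal is in both wells and free RNA in a well reached the cells of all of them. Animals are named WT1 to WT5 and KO1 to KO5 in the order of their hashtags.

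CXCL1, CXCL2 and CXCL3 are small secreted proteins that bind CXCR2, a G protein-coupled receptor on neutrophils, and guide these cells out of the blood into inflamed tissue. Macrophages, monocytes, epithelium and neutrophils themselves can make the ligands, often within a short time after a signal through Toll-like receptors, interleukin-1 or tumor necrosis factor. G-CSF, acting on the receptor encoded by Csf3r, drives the production of neutrophils and their release from bone marrow. In eosinophilic esophagitis the granulocyte that defines the disease is the eosinophil, and neutrophils are a further granulocyte of the inflamed wall.

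The 3 ligand genes lie on chromosome 5 of the mouse build GRCm38.p6, all on the plus strand: Cxcl3 (ENSMUSG00000029379) at chr5:90786101-90788093, Cxcl1 (ENSMUSG00000029380) at chr5:90891245-90893121 and Cxcl2 (ENSMUSG00000058427) at chr5:90903899-90905938, within 119.8 kb. Cxcr2 (ENSMUSG00000026180) lies at chr1:74153994-74161246 and Csf3r (ENSMUSG00000028859) at chr4:126023441-126044975. The 120 bases before the start of each ligand gene are shown, from RefSeq's promoter table of that build. The levels of the 3 genes were correlated over groups of cells, as given below, but Cxcl3 was spread differently from Cxcl1 and Cxcl2. Capitals mark the longest run of letters that the 3 promoters share in the 250 bases before their starts. The windows are chr5:90891125-90891244 for Cxcl1, chr5:90903779-90903898 for Cxcl2 and chr5:90785981-90786100 for Cxcl3, each written 5′ to 3′.
Cxcl1: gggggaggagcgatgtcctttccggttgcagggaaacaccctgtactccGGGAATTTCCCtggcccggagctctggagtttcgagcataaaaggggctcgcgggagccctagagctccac
Cxcl2: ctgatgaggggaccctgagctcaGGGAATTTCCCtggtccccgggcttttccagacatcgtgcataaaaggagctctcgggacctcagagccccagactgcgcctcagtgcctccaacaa
Cxcl3: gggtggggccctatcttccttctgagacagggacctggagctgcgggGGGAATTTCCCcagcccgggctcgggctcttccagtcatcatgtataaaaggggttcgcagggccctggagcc
The shared run has 11 bases. Its first base lies 71 bases before the start in Cxcl1, 97 in Cxcl2 and 73 in Cxcl3. The run GGGAATTTCCC, searched on both strands of the 250 bases before the start, was in 14 of 32851 promoters (0.0426%). It has the general form of the sites that NF-kB proteins bind, which is background and not a measurement of binding. The windows of Cxcr2 and Csf3r did not hold these letters, where the entry for Csf3r (chr4:126024409-126024708) is for a start inside the gene span given above. Neither did any of the 10 NF-kB response genes of a fixed list of 14 that had an entry. The run was picked because the 3 ligands share it, so they are among the 14 promoters counted. Only these exact letters were searched, so other forms of such sites were not counted in any gene. The letters TATAAA on the gene's strand, found before the start in 7.59% of promoters, begin 30 bases before the start of Cxcl3 and are not in the windows of the other 4 genes.

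The table held 6054 cells, 271 to 897 per animal, and 1805883 to 5666994 UMIs per animal. The deleted gene Il20rb had 0 to 5 UMIs in each WT and 1 or 2 in each KO animal, too few to check the genotype labels, and which part of the gene was deleted is not given in the labels. Cells were grouped into lineages by clustering without the 5 genes and 15 related ones and named from markers, so the names are rebuilt and each is written "X-like". The neutrophil-like class had 594 cells with a median of 1820 UMIs, against 5269 over all cells. Its naming markers did not include the 5 genes. S100a8 and S100a9, which encode the 2 chains of calprotectin, stood there at 30110 ± 9420 and 32780 ± 14830 CPM (UMIs of a gene per 1e6 UMIs of those cells, mean ± SD over 7 animals with 10 or more such cells), and Ly6g at 48.0 ± 35.1. The eosinophil markers Epx, Ear1, Ear6, Prg2 and Alox15 were at 0 in these cells. The other 3 of the 8 listed, Siglecf, Ccr3 and Il5ra, had a higher mean there than in monocyte-like cells. All 7 listed basophil markers had a higher mean there than in monocyte-like and macrophage-like cells. Leaving out cells with UMIs of the basophil markers Mcpt8, Ms4a2 or Cd200r3 kept 590 cells, with Cxcl2 at 34760 ± 9751 CPM. Neutrophil-like cells were 35.4% of the cells of WT1 (exact binomial 95% interval 32.3 to 38.7), 12.7% of WT2, 1.61% of WT3, 2.40% of WT4 and 7.61% of WT5. In the KO animals they were 7.98%, 0.256%, 0.369%, 0.962% and 7.36% of KO1 to KO5. KO2, KO3 and KO4 had 1, 1 and 4 such cells, so levels inside neutrophil-like cells rest on 7 animals, and in WT3 and WT4 on 13 and 12 cells. Intervals cover counting error only.

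Among the ligands, Cxcl2 had the most UMIs, 96711, and 54.7% of them were in neutrophil-like cells. There it stood at 47820, 41350, 24110, 22580 and 28490 CPM in WT1 to WT5 and at 38720 and 41980 CPM in KO1 and KO5. The genotypes overlapped, and WT3 and WT4, which had the fewest neutrophil-like cells, were the lowest. A UMI of Cxcl2 was found in 98.1% of neutrophil-like cells, at a median of 72 and up to 618 UMIs per cell. As a mean over animals the share was 95.4% ± 5.50 (SD, n = 7), and 94.7% ± 5.15 after each cell was thinned to 1000 UMIs.

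Monocyte-like cells held 28.5% of the Cxcl2 UMIs. Their level was 3278, 2290, 3415, 3741 and 4712 CPM in WT1 to WT5 and 2836, 247, 1141 and 2020 CPM in KO1, KO2, KO4 and KO5, the KO animals with 10 or more such cells. KO1 lay within the WT range and the other 3 KO animals below it. Macrophage-like cells stood at 1818, 1753, 1318, 711 and 1433 CPM in WT1 to WT5 and at 1567, 673, 820, 1395 and 1800 CPM in KO1 to KO5, with the genotypes overlapping over nearly their whole range.

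The order of Cxcl2 levels was neutrophil-like (35010 ± 9854 CPM, n = 7), monocyte-like (2631 ± 1371, n = 9), macrophage-like (1329 ± 445, n = 10), cycling, ILC2-like, cDC2-like, migratory dendritic-like, T-like and cDC1-like cells, where ILC2 are group 2 innate lymphoid cells and cDC the conventional dendritic cells. The last 6 stood at 329, 259, 194, 122, 95.3 and 18.8 CPM. Neighbours were taken to differ where the mean difference within animals exceeded its SD over animals. Neutrophil-like cells exceeded monocyte-like ones in 7 of 7 animals and macrophage-like exceeded cycling cells in 6 of 6, both beyond that spread. Monocyte-like and macrophage-like cells (7 of 9 animals), and all neighbours after cycling cells, did not differ beyond it.

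Low levels outside the myeloid classes are given beside genes that show free RNA. S100a8 and S100a9, which T-like, ILC2-like, cDC1-like and cDC2-like cells should lack, stood in these classes at 0.0103% to 0.0327% of their neutrophil-like level. Cxcl2 stood at 0.0493% in cDC1-like, 0.259% in T-like, 0.484% in cDC2-like and 0.560% in ILC2-like cells. In B-like cells S100a8 stood at 0.225%, S100a9 at 0.0152% and Cxcl2 at 0.626%, where 76 of the 95 Cxcl2 UMIs were in 1 cell of KO4. The part of free RNA in these low Cxcl2 levels, including that from monocyte-like cells, was not tested. A Cxcl2 UMI was found in 6.74% of cDC1-like, 10.9% of T-like, 17.2% of cDC2-like and 19.5% of ILC2-like cells, whose median depths were 8065, 3132, 6960 and 3281 UMIs. None of 35 NK-like cells held one, which allows a share of cells with a UMI of up to 8.57%.

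Cxcl1 had 2309 UMIs, of which 28.2% were in neutrophil-like, 32.3% in monocyte-like and 23.4% in macrophage-like cells. In neutrophil-like cells it stood at 627, 645, 109, 276 and 564 CPM in WT1 to WT5 and at 134 and 472 CPM in KO1 and KO5. WT3 and KO1 were the lowest, and the WT3 value rests on 2 UMIs in 1 cell. Only 15.99% of neutrophil-like cells held a Cxcl1 UMI, and the tenth of them with the most held 90.8% of its UMIs.

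Neutrophil-like cells (404 ± 229 CPM, n = 7) exceeded macrophage-like cells (91.3 ± 60.8, n = 10) for Cxcl1 in 6 of 7 animals, beyond the spread. Macrophage-like and monocyte-like cells (79.5 ± 56.6, n = 9) did not differ beyond it, and neither did any later neighbours. The unnamed clusters, with 10.7% of the Cxcl1 UMIs, stood at 45.2 ± 46.6 CPM (n = 10). Cycling cells stood at 20.1 CPM, migratory dendritic-like, ILC2-like, cDC2-like, T-like and cDC1-like cells at 0.660 to 15.8 CPM, and NK-like and B-like cells at 0.

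Cxcl3 was spread differently. Of its 2022 UMIs, 65.1% were in monocyte-like cells. Neutrophil-like cells stood at 252, 277, 0, 0 and 94.1 CPM in WT1 to WT5 and at 345 and 273 CPM in KO1 and KO5, and the 2 animals at 0 were those with 12 and 13 such cells. In monocyte-like cells it stood at 230, 274, 57.4, 29.1 and 251 CPM in WT1 to WT5 and at 94.8, 11.8, 56.1 and 89.9 CPM in KO1, KO2, KO4 and KO5. WT1, WT2 and WT5 lay above every KO animal, while WT3 and WT4 lay among them.

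For Cxcl3, neutrophil-like cells (177 ± 143 CPM) and monocyte-like cells (122 ± 102 CPM) did not differ beyond the spread, with neutrophil-like cells higher in 4 of 7 animals. Macrophage-like cells stood at 63.6 ± 79.3 CPM (n = 10). No UMI of Cxcl3 was found in the ILC2-like and cDC1-like cells, which allows up to 1.01% and 1.69% of these cells to hold 1. The most in a single cell was 106 UMIs, in a monocyte-like cell.

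**Figure D1:**
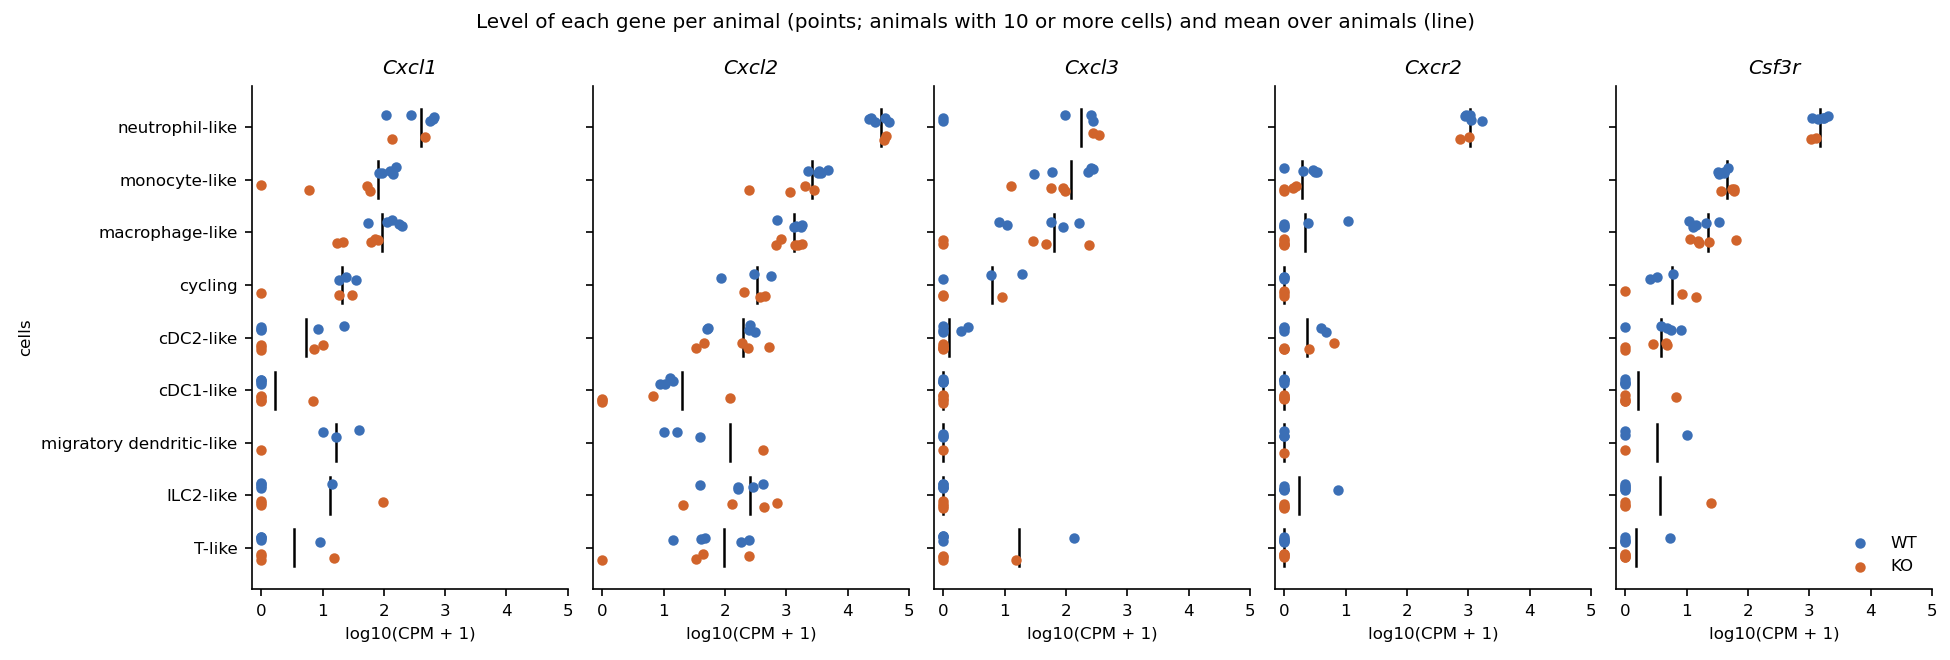
Level of each of the 5 genes (log10 of CPM + 1, horizontal) in each class of cells (vertical), with 1 point per animal that had 10 or more cells of the class (blue WT, orange KO) and a black line at the mean CPM over animals. Cxcl2 is highest in neutrophil-like cells and steps down to monocyte-like and macrophage-like cells, while Cxcr2 leaves the lower end of the axis mainly in neutrophil-like cells.

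Neutrophil-like cells held 96.6% of the 1367 UMIs of Cxcr2. Its level there was 1085, 1687, 871, 1049 and 925 CPM in WT1 to WT5 and 740 and 1028 CPM in KO1 and KO5. WT2 was the highest and KO1 the lowest, and KO5 lay inside the WT range. A UMI was found in 74.2% of these cells, and in 58.7% ± 12.8 (SD, n = 7) after thinning. In other classes with 10 or more cells in several animals, the mean was at most 1.38 CPM. T-like, cDC1-like, cycling, B-like and NK-like cells held none. A count of 0 limits cells with a UMI, not cells that express the gene, and allows shares with a UMI of up to 1.17%, 1.69%, 1.47%, 3.0% and 8.57%.

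Csf3r had 68.9% of its 2205 UMIs in neutrophil-like cells, at 1111, 1747, 1687, 1380 and 2023 CPM in WT1 to WT5 and at 1078 and 1279 CPM in KO1 and KO5. WT1 and KO1, 2 of the 3 animals with the most neutrophil-like cells, were the lowest. Unlike Cxcr2 it was also measured in monocyte-like cells (43.9 ± 10.7 CPM, n = 9) and macrophage-like cells (21.2 ± 16.1, n = 10), with UMIs in 21.7% and 10.7% of cells. Neutrophil-like, monocyte-like, macrophage-like and cycling cells followed in this order, each beyond the spread of the next. Named by a gate on marker UMIs in place of clusters, monocyte-like cells stood at 27.5 ± 14.5 CPM.

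A cluster of 10 fibroblast-like cells held UMIs of Cxcl2 in 7 cells (454 UMIs), of Csf3r in 7 and of Cxcr2 in 5. These cells had passed a CD45+ sort, and whether droplets with more than 1 cell gave these UMIs was not tested.

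Other genes of the CXCR2 axis came from a fixed list of 15. The other CXCR2 ligands were sparse: Cxcl5 had 8 UMIs, Cxcl15 none, and Ppbp, which encodes a platelet chemokine precursor, had 158 UMIs in monocyte-like and 110 in macrophage-like cells. Cxcr1, the second receptor of this family, had 70 UMIs, of which 69 were in neutrophil-like cells. Csf3, which encodes G-CSF, had 57 UMIs, 34 of them in neutrophil-like cells. Ackr1, which encodes a non-signalling chemokine receptor, had 7.

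Cytokines that can induce the ligands were carried mostly by the same cells. Il1b stood at 25280 ± 2660 CPM in neutrophil-like and 1024 ± 453 in monocyte-like cells, Tnf at 846 ± 481 and 81.5 ± 48.7, and Il1a at 656 ± 363 and 14.5 ± 8.99. Il17a and Il17f, whose products act on epithelium to raise these chemokines, had 37 and 58 UMIs, all but 1 in T-like cells. Il17ra, their receptor, stood at 356 ± 156 CPM in neutrophil-like cells. Cxcr4, which retains neutrophils in bone marrow, stood at 909.9 ± 307.8 CPM in neutrophil-like, 216 ± 110 in monocyte-like and 147 ± 92.9 in macrophage-like cells.

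Of the 14 NF-kB response genes, 13 had a higher mean CPM in neutrophil-like than in monocyte-like cells and 14 a higher one than in macrophage-like cells, with no test. Nfkbia, the inhibitor of NF-kB, stood at 6527 ± 1034 CPM there against 577 ± 165 in monocyte-like cells. Ptgs2, which encodes cyclooxygenase 2, stood at 3324 ± 917 against 94.9 ± 66.2, and Nlrp3, an inflammasome sensor, at 2045 ± 415 against 97.5 ± 24.7. Nfkb1 was the gene that did not, with 122 ± 54.5 CPM in neutrophil-like and 160 ± 27.4 in monocyte-like cells. The heat shock genes Hspa1a and Hspa1b went the other way, at 35.7 ± 22.2 and 26.3 ± 20.9 CPM in neutrophil-like and 683 ± 176 and 598 ± 164 in monocyte-like cells. Fos, an immediate early gene that tissue digestion can raise, stood at 3713 ± 335 and 2140 ± 257. The tissue had been digested for 30 min at 37 °C, and the part of digestion in any of these levels was not tested.

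Neutrophil-like cells fell into 2 clusters with different animals. The first held 295 cells of WT1 and 50, 63 and 43 of WT2, KO1 and KO5. The second held 136 cells, with 23, 31, 12, 12 and 39 from WT1 to WT5. Pooled over animals, Cxcl2 stood at 46130 CPM in the first and 30580 in the second. WT1 and WT2, the 2 animals with 10 or more cells in both, had 48710 and 43260 CPM of Cxcl2 in the first and 31710 and 37910 in the second. Csf3r was lower in the first cluster in WT1 (1051 against 2205 CPM) and higher there in WT2 (1807 against 1639). Cxcr2 stood at 1062 and 1795 CPM in the first and 1496 and 1492 in the second. With 2 animals, no test was made.

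Cxcl2, Cxcl1 and Cxcl3 differed widely among the clusters of monocyte-like and macrophage-like cells. Since clusters drew on different animals, means over animals with 10 or more cells are given by genotype. In WT animals Cxcl2 stood at 4985, 3662, 3589 and 3495 CPM in clusters 8, 5, 0 and 24 of the monocyte-like class and at 1143 and 724 in clusters 11 and 17. In KO animals the same clusters stood at 2583, 1261, 3278, 3078, 592 and 862 CPM. In this order the means rest on 5, 2, 2, 3, 4 and 2 WT animals and on 2, 2, 3, 2, 2 and 3 KO animals. Macrophage-like cluster 20 had 2846 CPM in 3 WT and 1946 in 2 KO animals, and cluster 9 had 63.4 in 2 WT animals. The tenth of monocyte-like cells with the most Cxcl2 held 62.6% of its UMIs in that class, and the tenth of macrophage-like cells 73.4%, against 27.5% in neutrophil-like cells.

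The ligands shared cells. Of the 127 monocyte-like cells with a Cxcl1 UMI, 97.6% also held Cxcl2, against 56.3% of the 1548 without, at median depths of 6306 and 5630 UMIs. In macrophage-like cells the shares were 93.9% of 99 and 40.1% of 755, at median depths of 8282 and 4584. Monocyte-like cells with Cxcl3 held Cxcl2 in 85.4% of 164 cells, against 56.6% of 1511. Csf3r was found in 15.7% of monocyte-like cells with Cxcl1 and 22.2% of those without, in 20.3% and 23.9% for Cxcl2, and in 18.3% and 22.1% for Cxcl3. These shares pool cells of all animals and clusters, which differ in both genes, and carry no test.

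Over the 33 clusters of 20 or more cells, the genes whose log2(CPM + 10) followed each gene best were listed, as a description over clusters that share libraries and animals. Cxcl1 correlated most with Ccrl2 (r = 0.87), Plk2, Tnf, Il1rn and Olr1. Cxcl2 correlated most with Dusp1 (0.90), a phosphatase that dampens MAP kinases, then with Zfp36, which encodes an RNA-decay factor, Ier3, Ccrl2 and Clec4e. For Cxcl3 the list was Saa3 (0.84), Slfn4, Gla, Thbs1 and Tgm2. Cxcr2 went with Mrgpra2b (0.98), Stfa2l1, Il1f9, Il23a and Retnlg, and Csf3r with Arg2 (0.96), Lrg1, Fpr2, Gm15832 and Wfdc21. Among the 5 genes, r was 0.87 for Cxcl1 with Cxcl2, 0.77 for Cxcl3 with either, and 0.82 for Cxcr2 with Csf3r.

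**Figure D2:**
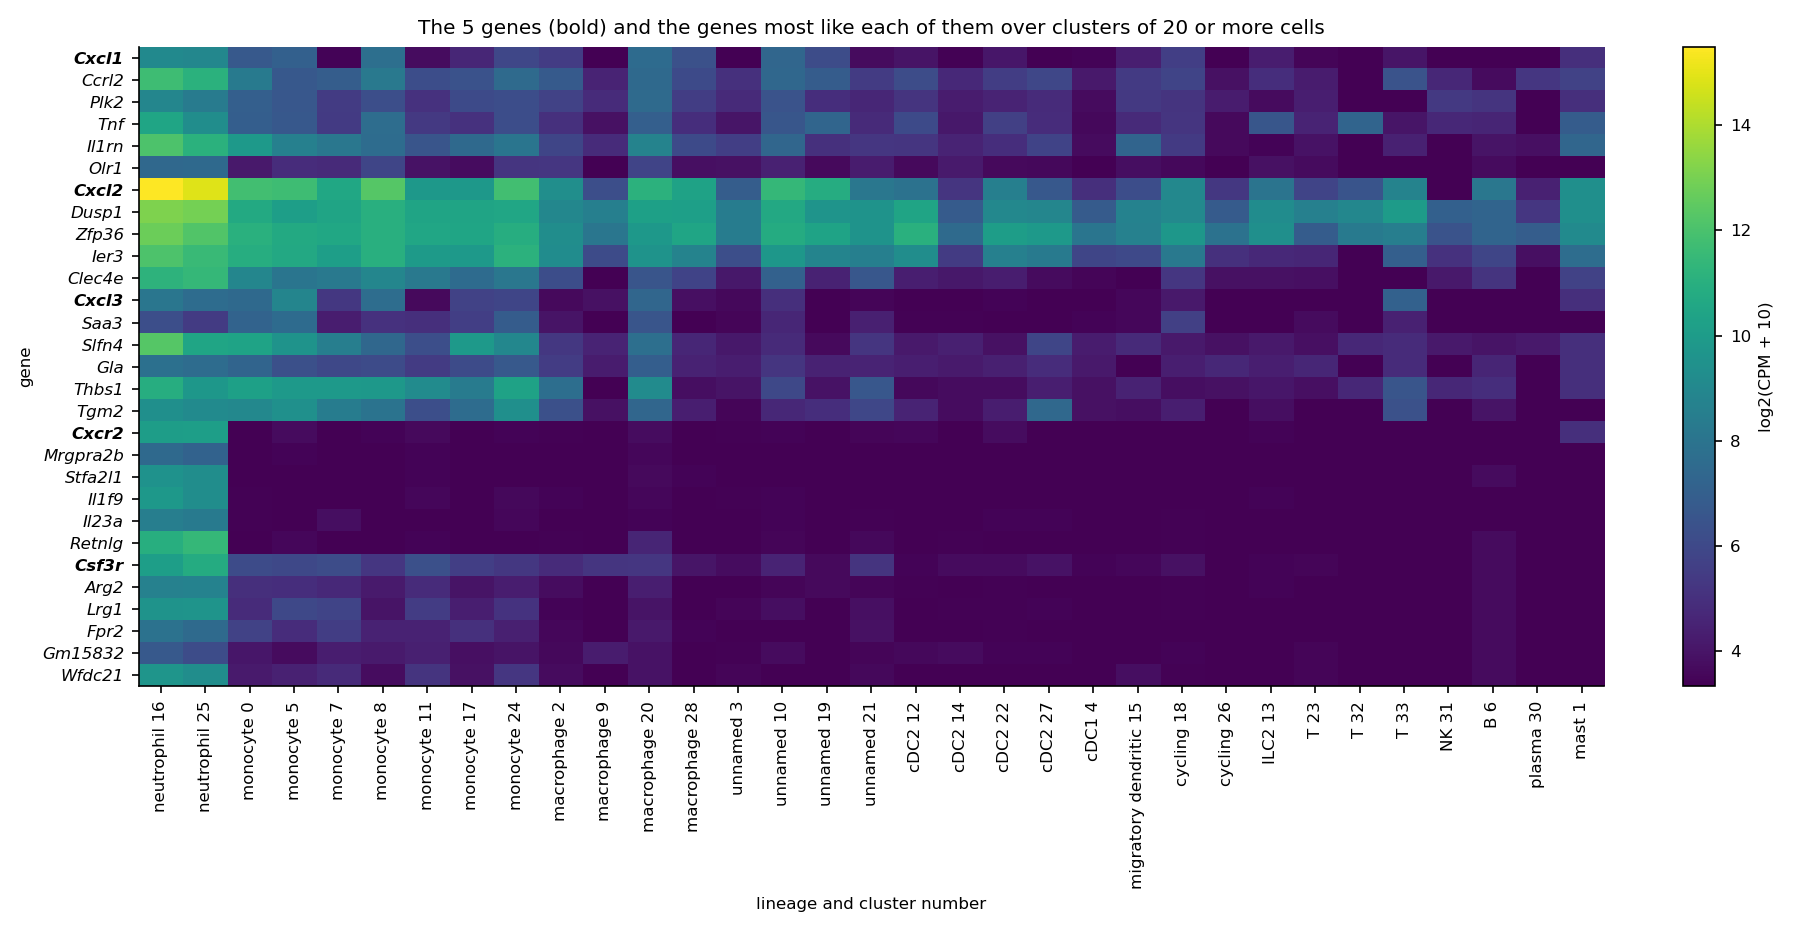
Level (colour, log2 of CPM + 10) of the 5 genes, in bold, and of the 5 genes most like each (rows; a gene like 2 of them is drawn once) in every cluster of 20 or more cells (columns, with lineage and cluster number). Cxcr2 and its 5 companions are brightest in the 2 neutrophil clusters, with Cxcr2 fainter in the mast cluster of 20 cells, while Cxcl2, Dusp1, Zfp36 and Ier3 stay above the floor in every monocyte and macrophage cluster.

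The part of an animal's ligand UMIs held by neutrophil-like cells depends on how many such cells it had, so these values are a description. In WT1, where 35.4% of cells were neutrophil-like, these cells held 81.8% of the animal's Cxcl2 UMIs. In WT2 they held 60.4%, in KO5 44.2%, in KO1 34.6% and in WT5 24.7%. KO5, KO1 and WT5 had shares of 7.36%, 7.98% and 7.61%, so this order was not that of the shares. In the 5 animals with shares of 2.40% or less, WT3, WT4, KO2, KO3 and KO4, they held 9.18%, 10.8%, 5.80%, 1.34% and 7.25%. For Cxcl1 the percentages were 59.7, 26.4, 0.654, 4.31 and 13.3 in WT1 to WT5, 6.76 in KO1, 25.3 in KO5 and 0 in the other KO animals. Cxcl3 was held by neutrophil-like cells to 25.4% at most, in WT1.

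**Figure D3:**
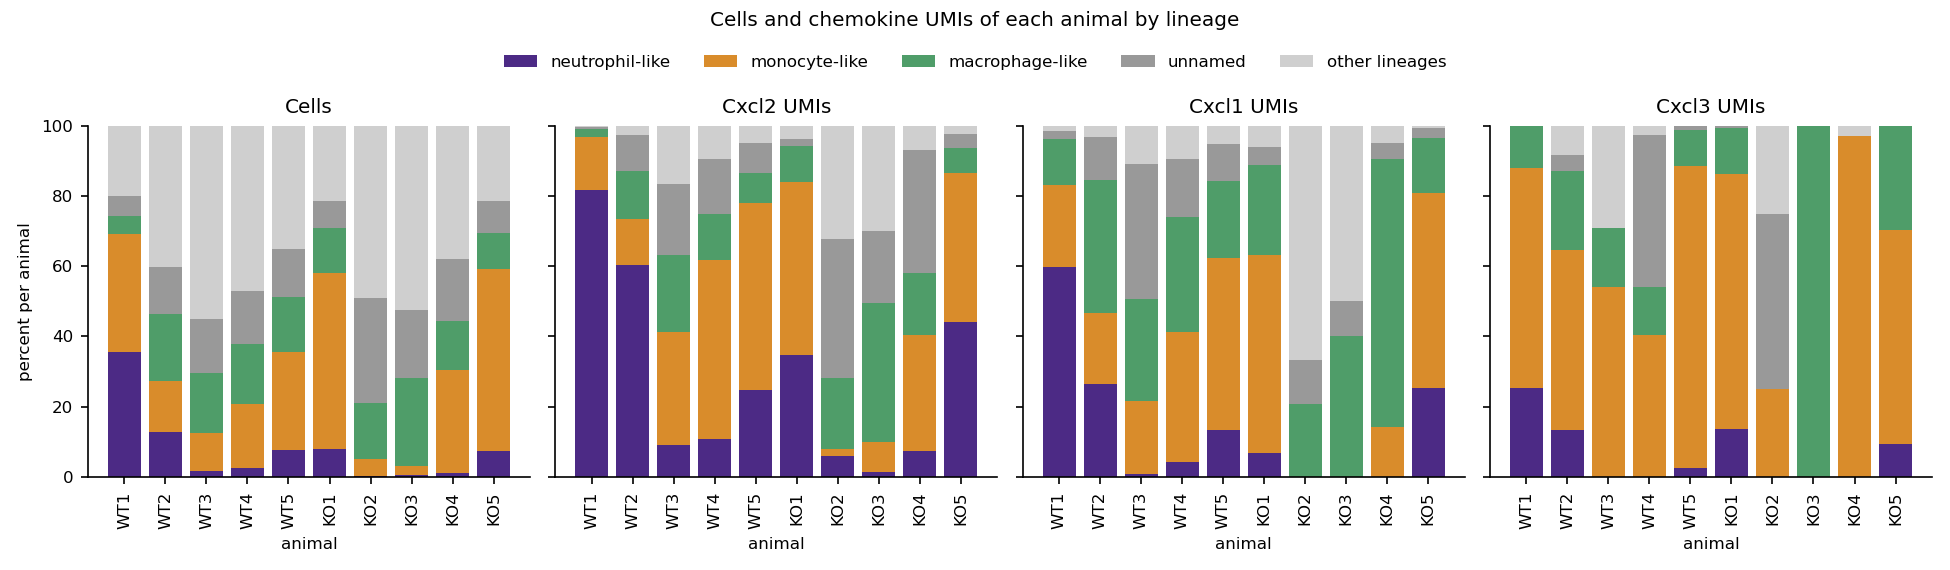
Percent of each animal's cells, and of its Cxcl2, Cxcl1 and Cxcl3 UMIs (vertical, percent), in neutrophil-like, monocyte-like, macrophage-like, unnamed and all other classes (stacked colours), for each of the 10 animals. The neutrophil-like part of the Cxcl2 bars reaches 81.8% in WT1 and 1.34% in KO3.

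The first genotype question was whether the summed level of each gene over all CD45+ cells differed between KO and WT animals. Cxcl2 stood at 9349, 2547, 943, 1167 and 2551 CPM in WT1 to WT5 and at 2802, 415, 455, 881 and 2532 CPM in KO1 to KO5. WT1 was far above the rest, and the other WT animals overlapped with KO1 and KO5. For Cxcl1 the values were 168, 90.9, 59.8, 35.8 and 93.6 CPM in WT and 49.6, 9.63, 11.1, 8.83 and 49.7 CPM in KO animals. Apart from WT4, every WT animal lay above every KO animal for Cxcl1. Cxcr2 stood at 174, 66.9, 3.91, 7.09 and 22.2 CPM in WT1 to WT5 and at 19.1, 2.41, 0, 2.10 and 29.3 CPM in KO1 to KO5. Neutrophil-like cells, whose number enters these sums, held 96.6% of all its UMIs. In summed samples, fewer cells of a type and less RNA per cell cannot be told apart.

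In edgeR's quasi-likelihood test on these sums, with Benjamini-Hochberg adjustment over all genes, none of the 5 genes passed, where 0.0393% of all 10175 genes tested were called. The log2 fold changes, KO over WT, were -1.66 (SE 0.68, adjusted p = 0.683) for Cxcl1, -1.18 (SE 0.85, adjusted p = 0.871) for Cxcl2 and -2.21 (SE 1.22, adjusted p = 0.817) for Cxcr2. Cxcl3 and Csf3r stood at -0.92 (SE 1.05) and -1.02 (SE 0.89). Without WT1 the values were -0.14 for Cxcl2, -0.86 for Cxcr2, -0.18 for Cxcl3 and -0.08 for Csf3r. Without KO5, Cxcl3 and Csf3r stood at -1.53 and -1.55. Before adjustment, 1 of the 5 (Cxcl1) had a p under 0.05, as did 697 of all 10175 genes tested. DESeq2 called 74 of all genes and none of the 5. All 5 values were negative, as were 48.8% of those of all genes tested, with a median of -1.18 against 0.01 over all genes. Neutrophil-like cells held 54.7%, 96.6% and 68.9% of the UMIs of Cxcl2, Cxcr2 and Csf3r, so these signs are not independent. The neutrophil-like share itself was 11.96% ± 13.87 in WT and 3.39% ± 3.93 in KO animals (two-sided exact permutation test, p = 0.159, n = 5 and 5). Without WT1 the WT minus KO gap shrank, with a KO minus WT difference of -2.70 percentage points against -8.57. The labels give 5 hashtags for the 5 animals of each genotype, so the spread is taken as that between animals.

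Within monocyte-like cells, Cxcl1 stood at 90.9, 127, 141, 83.3 and 159 CPM in WT1 to WT5 and at 57.3, 0, 4.95 and 52.0 CPM in KO1, KO2, KO4 and KO5. The genotypes did not overlap. KO2 had 0 UMIs in 19 cells, where 3 UMIs would be 35.3 CPM, and the KO4 value rests on 3 UMIs. The means were 120 ± 32.4 CPM in WT and 28.6 ± 30.3 CPM in KO animals (exact permutation test, p = 0.00794, n = 5 and 4, the smallest p that 126 assignments can give). This p was 0.218 after Benjamini-Hochberg adjustment over all 55 exact tests made of the 5 genes in 11 sets of cells, and 0.286 over the 45 that leave out unnamed and neutrophil-like cells. Of all genes tested in monocyte-like cells, 2.74% were lower in every KO than in every WT animal. In edgeR the log2 fold change was -1.44 (SE 0.48, adjusted p = 0.182), so Cxcl1 was not called, where 1.09% of 5511 genes were. That background itself varied, from 60 genes called to 281 without WT1 and 0 without WT4 or without KO4.

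The other genes were not called in monocyte-like cells either. For Cxcl2 the means were 3487 ± 873 CPM in WT and 1561 ± 1116 in KO animals (exact permutation p = 0.0238, n = 5 and 4, adjusted over the 55 tests 0.291), and edgeR's log2 fold change was -1.03 (SE 0.58, adjusted p = 0.457). Its exact p was under 0.05 in 6 of 15 alternatives and reached 0.0714. Cxcl3 had -1.07 (SE 0.64, adjusted p = 0.478). Csf3r lay the other way, at 37.9 ± 6.16 CPM in WT and 51.3 ± 10.9 in KO animals, with a log2 fold change of 0.63 (SE 0.19, adjusted p = 0.110 by edgeR). Cxcr2 was too sparse to test. Before adjustment, Cxcl1 and Csf3r had p under 0.05 by edgeR, as did 856 of all 5511 genes tested. DESeq2 called 124 genes in all and none of the 5.

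With cells pooled over animals, the monocyte-like class was made of different clusters in the 2 genotypes. KO cells were mostly in clusters 0 (297 cells) and 17 (227), and WT cells in clusters 8 (199), 11 (151) and 5 (114). KO1 to KO5 gave 440, 19, 7, 122 and 352 monocyte-like cells, so the KO mix is mainly that of KO1 and KO5. KO5 alone gave 42.2% of cluster 0 and 32.9% of cluster 17, and WT1 48.9% of cluster 5. Whether the mix differs between genotypes over animals was not tested. Inside cluster 8, Cxcl1 stood at 236 ± 102 CPM in 5 WT and 134 ± 16.3 in 2 KO animals. Inside cluster 0 it stood at 226 ± 109 in 2 WT and 55.2 ± 47.9 in 3 KO animals. Cluster 24 had 63.0 ± 80.5 in 3 WT and 32.2 ± 45.5 in 2 KO animals, and cluster 17 had 15.2 ± 6.68 in 2 WT and 10.9 ± 1.40 in 3 KO animals. Cluster 5 had 135 ± 3.67 and 51.0 ± 72.0 (2 animals each), and clusters 7 and 11 at most 4.75 CPM in either genotype. Cxcl3 had no common direction: it stood at 791 ± 91.7 CPM in WT and 30.4 ± 5.01 in KO animals (2 each) in cluster 5, and at 61.2 ± 42.0 and 168 ± 70.8 in cluster 0. How much of the difference between genotypes comes from the mix of clusters was not tested.

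In macrophage-like cells Cxcl1 stood at 194, 175, 111, 54.2 and 134 CPM in WT1 to WT5 and at 69.5, 15.9, 20.2, 60.3 and 79.9 CPM in KO1 to KO5. WT4 alone lay within the KO range. The means were 133 ± 55.0 and 49.2 ± 29.3 CPM (exact permutation p = 0.0317, n = 5 and 5, adjusted over the 55 tests 0.291), and the exact p was 0.0794 in well 2 alone and 0.0556 without KO2 or without KO3. The log2 fold change was -1.35 (SE 0.42, unadjusted p = 0.00794, adjusted p = 0.998 by edgeR). Of 5342 genes, 0.0562% were called and 242 had an unadjusted p under 0.05. With no filter on low counts the adjusted p was 0.00151 over 14771 genes, the only setting that called any of the 5 genes in a tested lineage. Inside macrophage-like cluster 20, which had the highest Cxcl1 of that class, the levels were 261 ± 35.5 CPM in 3 WT and 90.5 ± 8.30 in 2 KO animals.

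The unnamed clusters together showed the same order for Cxcl1. It stood at 51.5, 95.04, 148, 40.1 and 59.9 CPM in WT1 to WT5 and at 31.4, 4.01, 5.53, 2.32 and 14.9 CPM in KO1 to KO5, and the genotypes did not overlap. The means were 78.9 ± 43.7 and 11.6 ± 12.1 CPM (exact permutation p = 0.00794, n = 5 and 5, the smallest that 252 assignments can give, 0.218 adjusted over the 55 tests). The KO values rest on 1 to 14 UMIs each, and no edgeR fit was made on these clusters. The share of all genes without overlap between genotypes there was not computed, so the lack of overlap has no background. The unnamed cluster 10 had 231 ± 164 in 4 WT and 55.2 ± 66.6 in 5 KO animals.

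Cxcl2 in macrophage-like cells was close between genotypes (log2 fold change -0.13, SE 0.29, adjusted p = 0.998). The test of whether the genotype effect differs between monocyte-like and macrophage-like cells, with the animal as a term, gave a difference of -1.38 for Cxcl2 (SE 0.56, unadjusted p = 0.0406, adjusted p = 0.870 over 6542 genes by edgeR, 9 animals). For Cxcl1 it gave -0.67 (SE 0.54, adjusted p = 0.968). Neither passed.

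Cells other than neutrophil-like ones had, in sum, 80.5, 69.5, 59.7, 34.4 and 83.0 CPM of Cxcl1 in WT1 to WT5 and 47.4, 9.63, 11.1, 8.88 and 38.2 CPM in KO1 to KO5. WT4 lay among the KO animals and the other WT animals above them. The means were 65.4 ± 19.7 and 23.0 ± 18.4 CPM (exact permutation p = 0.0238, n = 5 and 5, adjusted over the 55 tests 0.291). The log2 fold change was -1.30 (SE 0.54, adjusted p = 0.661 by edgeR), where 0.0495% of 10110 genes were called. This test was added after the data were seen.

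Inside neutrophil-like cells, 5 WT animals were set against the 2 KO animals with 10 or more such cells, which is fewer than the 3 per genotype asked for elsewhere and was added after the data were seen. No gene of the 5 was called, where 0.0557% of 1795 genes were. The log2 fold changes were 0.60 for Cxcl2 (SE 0.41, adjusted p = 0.593), 1.01 for Cxcl3 (SE 0.71), -0.41 for Cxcl1 (SE 0.70), -0.03 for Cxcr2 (SE 0.39) and -0.06 for Csf3r (SE 0.33). None had an unadjusted p under 0.05, where 173 of the 1795 genes did. In CPM, Csf3r stood at 1590 ± 352 in WT and 1179 ± 142 in KO animals (exact permutation p = 0.190, n = 5 and 2, smallest possible 0.0476), and Cxcr2 at 1123 ± 327 and 884 ± 203 (p = 0.381 by the same exact test).

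Cxcl2 was the only one of the 5 that could be tested in ILC2-like, cDC2-like and cycling cells, and it was not called there. Of all genes, 0.452%, 0.0337% and 0.0678% were called in these 3 classes. None of the 5 passed the filter on low counts in T-like and cDC1-like cells, where 0.0% and 0.0966% of genes were called. In T-like cells 53 of 1426 genes had an unadjusted p under 0.05, and DESeq2 called 2.

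**Figure D4:**
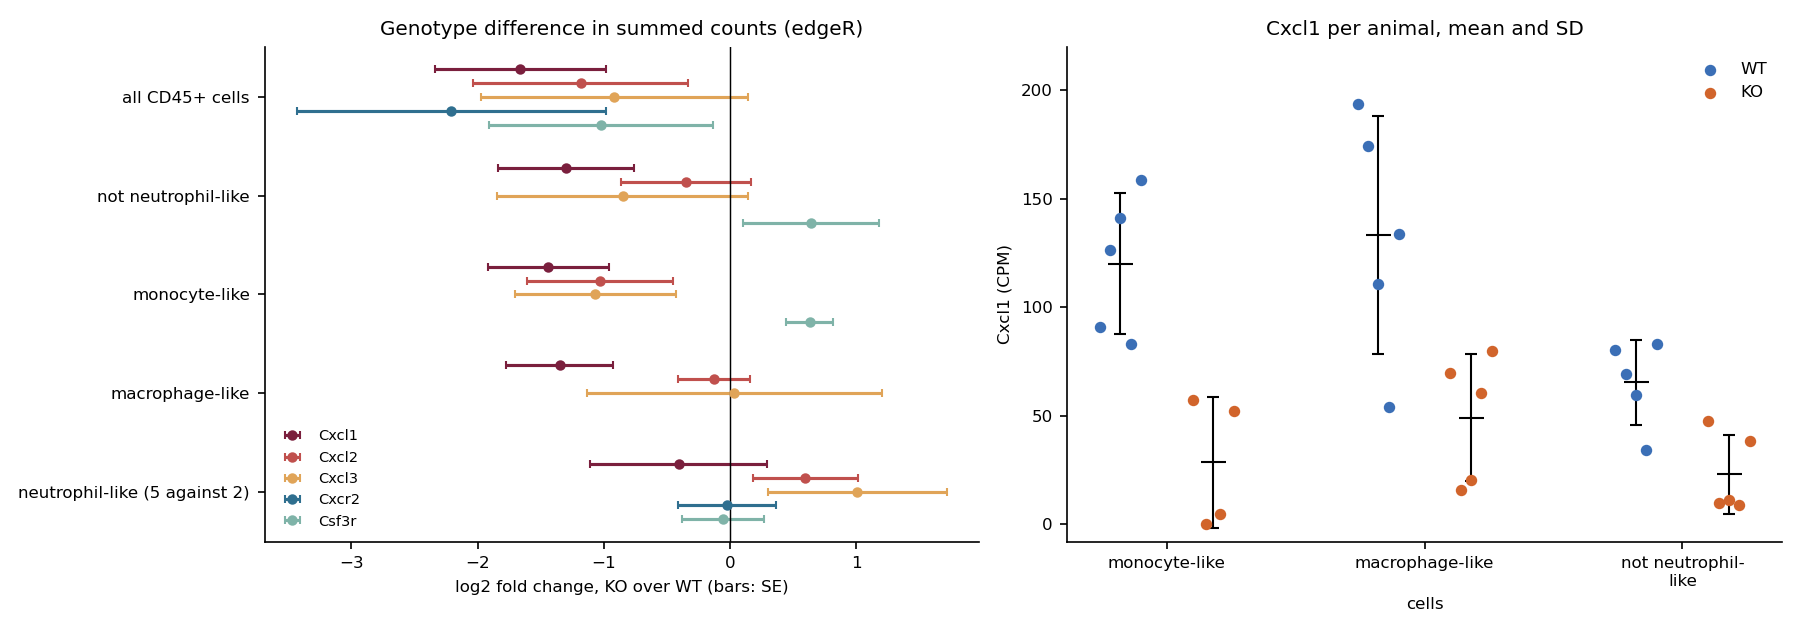
Left, log2 fold change of each gene, KO over WT, in 5 sets of cells (points, with bars of 1 SE, from edgeR on counts summed per animal). Right, Cxcl1 in CPM for each animal (points) with the mean and SD of each genotype. The 5 WT animals lie between 83.3 and 159 CPM in monocyte-like cells and the 4 KO animals at 57.3 or below.

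No gene of the fixed lists was called in all CD45+, monocyte-like, macrophage-like or neutrophil-like cells by edgeR. Among the 7 measured genes of the axis list, 6 were lower in KO animals over all CD45+ cells, with a median log2 fold change of -0.84, led before adjustment by Cxcr4 (-0.84, SE 0.27, adjusted p = 0.514). In monocyte-like cells 4 of 5 were lower, with Tnf at -0.99 (SE 0.31, adjusted p = 0.148). Of all genes tested, 48.8% were lower in KO animals over all CD45+ cells and 52.8% in monocyte-like cells. The 14 NF-kB response genes had a median of -0.25 over all CD45+ cells (12 negative), and of -0.02 in monocyte-like cells (8 negative), where the median of all 5511 genes was also -0.02. Immediate early and heat shock genes had medians of 0.03 and -0.13. The chemoattractant receptors and adhesion genes had medians of -0.02 and 0.08, and the genes of CXCR2 and G-CSF receptor signalling medians near 0 in both. In ILC2-like cells Ptafr, the receptor of platelet-activating factor, was called lower in KO animals (log2 fold change -1.61, SE 0.37, adjusted p = 0.0492 by edgeR), where 0.452% of 1547 genes were called. It was called in 5 of the 15 alternatives that gave it an adjusted p, which reached 0.240. Among the 5, the clusters at resolutions 1 and 3 gave the same values as the fit reported, so they add nothing to it.

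The last comparison set ligand levels outside neutrophil-like cells against the neutrophil-like share of each animal, leaving neutrophil-like cells out of the ligand level so that their number does not enter it. Cxcl2 in these other cells stood at 2022, 1049, 860, 1047 and 1965 CPM in WT1 to WT5 and at 1879, 391, 449, 821 and 1452 CPM in KO1 to KO5. KO2 and KO3, with the smallest neutrophil-like shares, were the lowest, and WT1, WT5 and KO1 the highest. Cxcl3 stood at 141, 69.8, 9.42, 11.5 and 84.0 CPM in WT1 to WT5 and at 56.7, 1.61, 6.10, 14.8 and 72.9 CPM in KO1 to KO5. The 5 animals with shares of 7.36% or more all had over 56 CPM of Cxcl3, and the other 5 had 14.8 CPM or less.

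Over the 10 animals, log2(CPM + 10) rose with the share for all 3 ligands. For Cxcl3, Pearson's r was 0.78 (permutation p adjusted over the 3 ligands 0.00099) and Spearman's rho 0.87 (0.00321). For Cxcl2 they were 0.62 (0.0384) and 0.92 (0.00165), and for Cxcl1 0.62 (0.0384) and 0.81 (0.00719). The unadjusted p-values of r were 0.00033, 0.0384 and 0.0286 in the same order. Without WT1 and WT2, whose shares were farthest from the median, r was 0.97, 0.91 and 0.73. With well 1 alone, r was 0.82, 0.70 and 0.63, and with well 2 alone 0.71, 0.50 and 0.56, where Cxcl2 (adjusted p = 0.106) and Cxcl1 (0.093) no longer passed. Spearman's rho in well 2 passed for both, at 0.75 for Cxcl2 (permutation p adjusted 0.0252) and 0.71 for Cxcl1 (0.0261). Pearson's r also failed to pass for Cxcl1 without KO2, KO3 or KO4 (0.58, 0.58 and 0.60), and for Cxcl2 without WT3, KO2, KO3 or KO4 (0.62, 0.61, 0.60 and 0.61), while the rank correlations passed in each of these.

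With the genotype means taken off both measures, r was 0.75 for Cxcl3 (permutation p adjusted 0.00604), 0.54 for Cxcl2 (0.0201) and 0.50 for Cxcl1 (0.0689). In monocyte-like cells alone, over 9 animals, r was 0.66, 0.34 and 0.37 and did not pass for any ligand (permutation p adjusted 0.0982, 0.318 and 0.318). Spearman's rho there was 0.87 for Cxcl3, which passed (permutation p adjusted 0.0135). It was 0.38 for Cxcl2 (0.313) and 0.52 for Cxcl1 (0.243), which did not pass. In macrophage-like cells alone r was 0.68 for Cxcl3 and 0.68 for Cxcl1 (both 0.0277) and 0.58 for Cxcl2 (0.0510). Spearman's rho passed there for Cxcl3 (0.77, permutation p adjusted 0.0120), Cxcl1 (0.85, 0.00572) and Cxcl2 (0.84, 0.00572). The monocyte-like share moved with the neutrophil-like share in part of the animals: it was 33.7, 14.6, 10.7, 18.2 and 28.0% in WT1 to WT5 and 50.2, 4.87, 2.58, 29.3 and 51.8% in KO1 to KO5. Its part in the relation was not tested beyond the values within monocyte-like cells. Cxcr2 in all cells other than neutrophil-like ones stood at 0 CPM in KO3 and at 0.543 (KO1) to 4.34 (WT2) CPM in the other animals. Its 47 UMIs there lay in 27 cells, with 15 UMIs in fibroblast-like cells and 7 in 1 macrophage-like cell of WT2. This level therefore says little about free neutrophil RNA, whose part in the relation was not tested. Inside neutrophil-like cells, over the 7 animals with 10 or more, r of Cxcl2 with the share was 0.72 (permutation p = 0.0206, 0.103 adjusted over the 5 genes), a relation added after the data were seen.

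**Figure D5:**
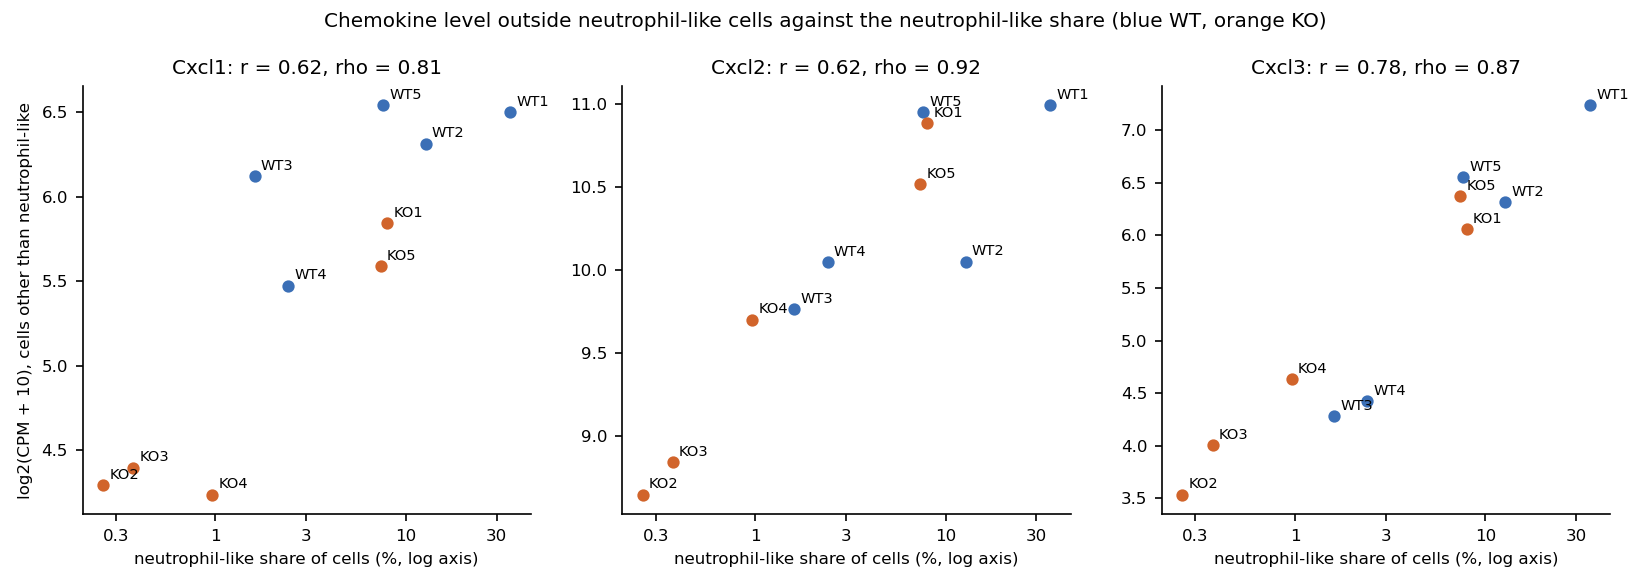
Level of Cxcl1, Cxcl2 and Cxcl3 in cells other than neutrophil-like ones (vertical, log2 of CPM + 10) against the neutrophil-like share of all cells (horizontal, percent, log axis), with 1 labelled point per animal (blue WT, orange KO). The r printed above each plot is for the share itself, not its logarithm. KO2 and KO3 are at the lower left for Cxcl2 and Cxcl3, and WT1 at the upper right.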

How the data were processed

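The deposited table holds UMI counts per gene and cell, made by the authors with Cell Ranger 6.0.1 and R 4.0.5 on the mouse build mm10, per the submitters' processing notes. It was already filtered: every cell had at least 1000 UMIs. Not given in the sources used here: the hashtag calling, the annotation release and the use of strand. Cxcl1, Cxcl2 and Cxcl3 are related genes, and whether the counting split reads between them was not tested.

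Cells were clustered with scanpy 1.11.5 (2000 variable genes, 30 principal components, 15 neighbours, Leiden resolution 2), leaving out 20 genes of the CXCR2 axis, and named from at least 3 markers. Scrublet marked 3 cells (0.0496%) and so did not work; doublets were left in. Counts were summed per animal and lineage with 10 or more cells, in lineages with 3 or more animals per genotype. They were tested in R 4.3.3 with edgeR 4.0.16 (filterByExpr, TMM, robust quasi-likelihood fit, Benjamini-Hochberg threshold 0.05). DESeq2 1.42.0 was an alternative. For a single gene, CPM values per animal were set against each other in exact permutation tests (two-sided), and correlations used 100000 permutations over 10 animals, with log2(CPM + 10). Depth was 1805883 to 5666994 UMIs per animal.

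The members, the gene lists and the comparisons were chosen with earlier results of these data known. Named genes are the 5 members, the genes of the lists, the 5 genes most correlated with each member over clusters of 20 or more cells among genes with 200 or more UMIs, and markers where they check a lineage. Tests on cells other than neutrophil-like ones, inside neutrophil-like cells, the exact tests under alternatives, their adjustment over all 55 and the alternatives for Ptafr were chosen after seeing the data. Promoters are from RefSeq (GRCm38.p6), and 32158 of the gene IDs matched a symbol.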

Additional observations from a re-analysis of the deposited data

Results flagged for a closer look

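Within each genotype, 41 sets of 4 or 5 animals were searched for a single animal far from the rest, and 4 had one, where chance gives about 1 in 20. Over all CD45+ cells of WT animals, WT1 had 9349 CPM of Cxcl2, against 943 to 2551 in the other WT animals. It was also the animal with the largest neutrophil-like share, 35.4%. In neutrophil-like cells of WT animals, WT2 had 1687 CPM of Cxcr2, against 871 to 1085 in the others. In macrophage-like cells of KO animals, KO5 stood apart for both Cxcl3, with 237 CPM against 0 to 46.4, and Csf3r, with 62.8 CPM against 10.1 to 22.3.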

How the results depend on the processing

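No paired analysis was possible because both wells hold all 10 animals and the animal numbers only name the hashtag order. Of 598 values under alternatives, 548 were taken as unchanged. For a tested value this meant the same direction and side of the threshold. For a level it meant a mean within the SD, and for a rank the same rank. A count of the 5 genes called had to stay equal or within a fixed factor. No value that had been called reversed, and 21 of 372 tested values that stayed uncalled had another sign. Without a filter on low counts 1 of the 5 genes was called in a tested lineage, Cxcl1 in macrophage-like cells (log2 fold change -1.36, adjusted p = 0.00151 by edgeR). The adjusted p of Cxcl1 in macrophage-like cells ran from 0.00151 to 1.0 over the alternatives, and in monocyte-like cells from 0.103 to 0.931. The gate on marker UMIs moved Csf3r in monocyte-like cells to 27.5 CPM.

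The relation of Cxcl1 with the neutrophil-like share had r of 0.56 in well 2 alone, 0.50 with genotype means taken off and 0.37 in monocyte-like cells alone. For Cxcl2, r was 0.50 in well 2, 0.34 in monocyte-like and 0.58 in macrophage-like cells alone, and for Cxcl3 0.66 in monocyte-like cells alone. None of these values of r passed. Spearman's rho did pass for Cxcl1 and Cxcl2 in well 2, Cxcl3 in monocyte-like and Cxcl2 in macrophage-like cells. It did not pass for the others, and the cause was not tested. Leaving out 1 animal gave r of 0.5841 to 0.7458 for Cxcl1, 0.5972 to 0.7007 for Cxcl2 and 0.7651 to 0.9093 for Cxcl3. Cxcl1 failed without KO2, KO3 or KO4, and Cxcl2 without those or WT3.

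Counts of all genes called depended on the setting. They ran from 1 to 74 in all CD45+ cells (4 in the fit reported, 74 with DESeq2), 0 to 281 in monocyte-like (60, and 244 without the filter), 0 to 24 in macrophage-like, 3 to 75 in non-neutrophil and 0 to 61 in neutrophil-like cells. In ILC2-like, T-like, cDC1-like, cDC2-like and cycling cells they ran from 0 to 13, 0 to 11, 0 to 12, 1 to 33 and 1 to 10. Cxcr2, with 8 UMIs in monocyte-like cells, did not pass the filter on low counts there, and levels in neutrophil-like cells of WT3 and WT4 rest on 13 and 12 cells.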
